A study of Mus musculus with 8 samples.

Results

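The report describes 7 genes of cholesterol synthesis and its control in mouse liver: Srebf2, Insig1, Hmgcs1, Idi1, Fdft1, Sqle and Dhcr7. They were picked by gene symbol, and all 7 were found among the 24662 features of the CMV table and the 27261 features of the αSMA table. The study measured poly(A) RNA of whole liver in 8 libraries. Livers of mice given AAV6-CMV-shThbs2 were compared with livers given AAV6-CMV-NC, and livers given AAV6-αSMA-shThbs2 with livers given AAV6-αSMA-NC, with 2 libraries in each group. All 4 groups carried an adeno-associated virus of serotype 6 (AAV6). The hairpin, shThbs2, targets Thbs2, which encodes the matrix glycoprotein thrombospondin-2. CMV is a promoter active in many cell types, αSMA is the smooth muscle actin whose promoter is active in myofibroblasts, and NC is the labels' name for the control vector. The labels give no strain, age, time or injury model. The CMV libraries were sequenced on a HiSeq2500 by Biomarker Technologies and the αSMA libraries on a DNBSEQ-T7 by Frasergen. Effects of the vector, of the sequencer and of the company cannot be told apart when the tables are compared.

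Cholesterol is made from acetyl-CoA through mevalonate, farnesyl diphosphate, squalene and lanosterol, and the liver is a main site of this synthesis. SREBP2, the product of Srebf2, is made as a precursor in the membrane of the endoplasmic reticulum, where INSIG proteins hold it together with its escort SCAP while sterols are plentiful. When sterols are scarce the precursor moves to the Golgi, is cleaved by the site-1 and site-2 proteases, and its released part binds sterol regulatory elements in the promoters of genes for synthesis and uptake. SREBP2 activity is set mainly by this cleavage, which messenger RNA does not measure.

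All 7 are protein-coding genes, placed here by the GENCODE annotation of GRCm38. Srebf2 lies at chr15:82147181-82205379, Insig1 at chr5:28071363-28078662, Hmgcs1 at chr13:119690379-119708260 and Idi1 at chr13:8885501-8892451, all on the plus strand. Sqle at chr15:59315077-59331192 and Dhcr7 at chr7:143823145-143848410 are on the plus strand too, and Fdft1 at chr14:63145150-63179578 is on the minus strand. The promoters of Srebf2 and Hmgcs1 are shown because they were the 2 windows that held the first 8 letters of the sterol regulatory element searched for. The sequences are RefSeq's, build GRCm38.p6, plus strand, and end before the first annotated base of the gene. Capitals mark the sterol regulatory element letters and ATTGG, the reverse complement of the NF-Y box CCAAT. NF-Y is a factor that binds many promoters together with SREBPs.
Srebf2 promoter, chr15:82147019-82147180: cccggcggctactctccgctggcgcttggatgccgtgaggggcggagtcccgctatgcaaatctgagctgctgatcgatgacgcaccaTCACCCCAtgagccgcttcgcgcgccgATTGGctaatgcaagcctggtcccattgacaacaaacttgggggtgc
Hmgcs1 promoter, chr13:119690101-119690350: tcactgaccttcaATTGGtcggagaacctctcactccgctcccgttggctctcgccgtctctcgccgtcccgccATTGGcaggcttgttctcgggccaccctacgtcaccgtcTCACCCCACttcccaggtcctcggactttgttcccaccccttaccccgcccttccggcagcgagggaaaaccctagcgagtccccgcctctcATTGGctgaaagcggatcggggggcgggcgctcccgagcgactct
Of the 7 genes, 5 had a RefSeq promoter entry, and the 250 bases before each start were searched on both strands. The letters TCACNCCAC occurred in Hmgcs1, with their first base 137 bases before the RefSeq start, and in 1.05% of all 32851 windows. TCACNCCA, a shorter form searched after the sequences had been seen and contained in the first motif, also occurred in Srebf2, 162 bases before the RefSeq start, and in 3.67% of all windows. The RefSeq start of Srebf2 lies downstream of the GENCODE start, where the printed sequence ends, so the distance to the GENCODE start is shorter. CACNCCAC, the last 8 letters of the element, occurred in Hmgcs1, where it overlaps the full match, and in Insig1, and in 5.29% of windows. CCAAT occurred 3 times in Hmgcs1, 2 times in Idi1, 1 time each in Srebf2 and Insig1, and 2 times in 1 window of Dhcr7, a gene with 3 RefSeq windows. It was present in 33.8% of all windows. Some matches lie downstream of the GENCODE start, so inside the annotated gene. These are both CCAAT boxes of Idi1, the CACNCCAC of Insig1 and both CCAAT boxes of Dhcr7, in its window chr7:143829964-143830213. The Dhcr7 window that spans the GENCODE start, chr7:143822917-143823166, held no CCAAT.

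Expression was given as FPKM, fragments per kilobase of transcript relative to sequencing depth, so levels can be set against each other between genes of a table. Each table was normalised on its own. The FPKM sums of the libraries were 1253740 and 1225210 with αSMA-shThbs2, against 941530 and 924060 with αSMA-NC. They were 514641 and 503000 with CMV-shThbs2, against 504227 and 491931 with CMV-NC. The hepatocyte list was high in every library, and all 8 of its markers passed the filter on low values. Thbs2 measured 0.695 and 0.614 FPKM with CMV-shThbs2, against 1.27 and 0.922 FPKM with CMV-NC. It measured 0.85 and 1.14 FPKM with αSMA-shThbs2, against 1.37 and 1.47 FPKM with αSMA-NC. Thbs2 was thus lower in both shThbs2 groups without overlap, but neither difference passed limma (CMV log2 change −0.34, adjusted p = 0.60 in a fit with no filter; αSMA log2 change −0.28, adjusted p = 0.269). Reads of mitochondrial genes made up 23.1% and 24.6% of the FPKM sum with αSMA-shThbs2, against 12.2% and 12.1% with αSMA-NC. In the CMV table the shares were 14.8% and 15.8% with shThbs2, against 13.3% and 13.9% with NC. In whole tissue, fewer cells of a type and less RNA per cell cannot be told apart.

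Within a group the order of the 7 genes was led by Hmgcs1, the cytosolic HMG-CoA synthase that starts the mevalonate route. Its mean was 75.1 FPKM with CMV-shThbs2, 79.0 FPKM with CMV-NC, 172 FPKM with αSMA-shThbs2 and 51.8 FPKM with αSMA-NC. It stood clear of the next gene, Insig1 (69.4 FPKM), only with αSMA-shThbs2. In the other 3 groups its libraries overlapped those of the next gene, Insig1 or Dhcr7. Srebf2 was lowest in 3 groups, at means of 11.4 FPKM with CMV-shThbs2, 11.8 FPKM with CMV-NC and 9.26 FPKM with αSMA-shThbs2, clear of the gene above it in each. With αSMA-NC, Dhcr7 (11.9 FPKM) was lowest and overlapped Srebf2 (15.0 FPKM) and Fdft1 (15.4 FPKM). With CMV-shThbs2, Dhcr7 (34.0 FPKM) overlapped Idi1 (40.4 FPKM) and Fdft1 (33.6 FPKM). With CMV-NC, Dhcr7 (72.2 FPKM) overlapped Hmgcs1, Insig1 (69.6 FPKM) and Idi1 (53.3 FPKM).

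**Figure D1:**
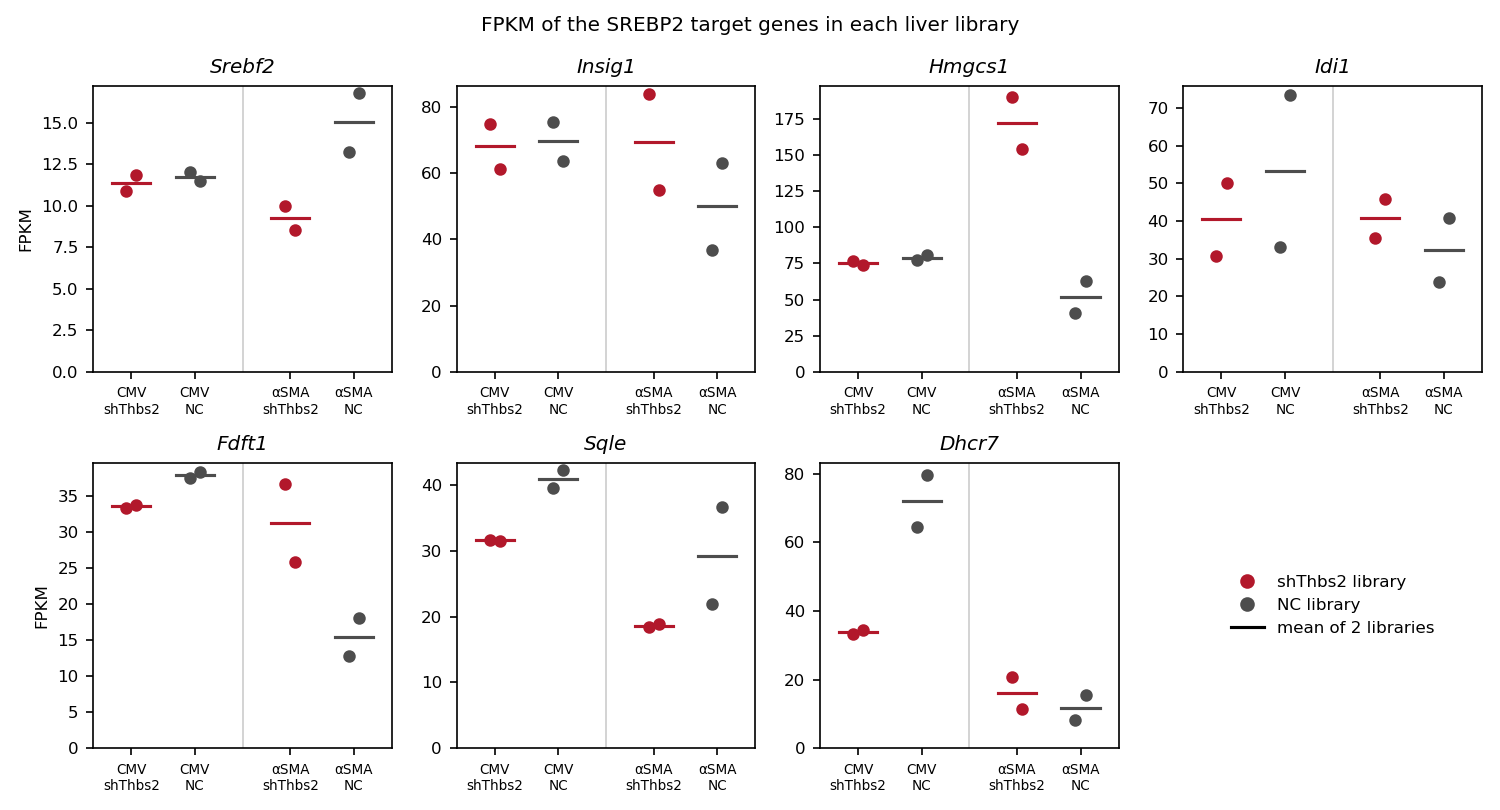
FPKM of each gene (vertical axis, linear from 0) in each library, with shThbs2 in red and NC in grey for the CMV and αSMA tables, and bars at the mean of 2 libraries. Dhcr7 of the CMV table and Hmgcs1 of the αSMA table show the widest gaps between groups.

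The CMV comparison asks whether the hairpin driven by a general promoter changed the genes. All 7 were lower with CMV-shThbs2 on average, but 0 passed the threshold of an adjusted p of 0.05. Dhcr7 and Sqle had the most negative log2 changes, and Srebf2, Hmgcs1 and Insig1 were nearest to no change. Over all 10916 genes tested, 0.0183% were called higher (2 genes) and 0% lower, so the count of 0 of 7 is near the background. At an unadjusted p under 0.05, limma gave 0 higher and 2 lower genes of the 7, against 625 higher and 488 lower in the table. The groups did not overlap for 4 of the 7, all lower with shThbs2, and for 0 higher. Of all tested genes 17.5% were lower without overlap and 24.5% higher. The median log2 change was −0.17 over the 7 genes and 0.03 over all genes tested, and 56.3% of all genes were higher.

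Srebf2, the gene of the precursor, measured 10.9 and 11.8 FPKM with CMV-shThbs2, against 12.0 and 11.5 FPKM with CMV-NC. The groups overlapped, with a log2 change of FPKM + 1 of −0.05 (SE 0.13, limma adjusted p = 0.937). Insig1 encodes a protein that holds the precursor back and is itself an SREBP target. It measured 74.7 and 61.3 FPKM with CMV-shThbs2, against 75.5 and 63.8 FPKM with CMV-NC. These groups overlapped too, and library 1 was the higher in both (log2 change −0.04, SE 0.16, adjusted p = 0.962).

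Hmgcs1 measured 76.4 and 73.7 FPKM with CMV-shThbs2, against 77.5 and 80.6 FPKM with CMV-NC. Both shThbs2 libraries were just below both NC libraries, by a log2 change of −0.07 (SE 0.12, adjusted p = 0.869, 95% interval −0.36 to 0.22). Idi1 encodes the isomerase that interconverts the isoprenoid units isopentenyl and dimethylallyl diphosphate. It measured 30.7 and 50.2 FPKM with CMV-shThbs2, against 33.2 and 73.3 FPKM with CMV-NC. The groups overlapped and the spread within NC exceeded the difference (log2 change −0.32, SE 0.40, adjusted p = 0.819). Fdft1, squalene synthase, which commits farnesyl diphosphate to sterols, measured 33.4 and 33.7 FPKM with CMV-shThbs2, against 37.4 and 38.3 FPKM with CMV-NC. The shThbs2 libraries were below the NC libraries without overlap (log2 change −0.17, SE 0.12, adjusted p = 0.663).

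Sqle encodes squalene epoxidase, a rate-limiting oxygenase that acts after squalene synthase. It measured 31.6 and 31.5 FPKM with CMV-shThbs2, against 39.5 and 42.2 FPKM with CMV-NC. The groups did not overlap, but the log2 change of −0.36 (SE 0.12) did not pass (limma adjusted p = 0.432). Dhcr7 encodes the reductase that turns 7-dehydrocholesterol into cholesterol. It measured 33.4 and 34.5 FPKM with CMV-shThbs2, against 64.6 and 79.7 FPKM with CMV-NC. Both shThbs2 libraries lay at about the same level, far below both NC libraries, with a ratio of means of 0.471. The log2 change was −1.06 (SE 0.15, 95% interval −1.42 to −0.70), its p ranked 25 of 10916, and the adjusted p was 0.137. Without NC library 1 the log2 change of Dhcr7 was −1.21, and without NC library 2 it was −0.91. In these 2 fits the lone NC library is assumed to vary like the other group. Dhcr7 did not pass in the other 12 of 14 alternatives, with a limma adjusted p of 0.522 with no filter on low values.

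Marker sums of several cell types were lower with CMV-shThbs2 as well, but no tested marker of any list passed the threshold. The 8 hepatocyte markers summed to 45806 to 49963 FPKM with CMV-shThbs2, against 65393 to 65487 FPKM with CMV-NC. Of the 8, 5 were lower and 3 higher, and none was at 0. Alb made up most of this sum, at means of 34499 FPKM with CMV-shThbs2 and 49943 FPKM with CMV-NC. The 8 stellate cell and myofibroblast markers summed to 36.7 to 40.2 FPKM with CMV-shThbs2, against 51.5 to 65.3 FPKM with CMV-NC, with 8 of 8 lower and none at 0. Monocyte and neutrophil markers summed to 6.04 to 6.88 FPKM with CMV-shThbs2, against 9.22 to 13.6 FPKM with CMV-NC. Of these 7 markers, 5 passed the filter on low values, and all 5 were lower. The untested Ly6c2 had higher means with CMV-shThbs2 (1.02 FPKM) than with CMV-NC (0.785 FPKM), as had Retnlg (0.446 and 0.273 FPKM). Cholangiocyte markers summed to 45.3 to 52.7 FPKM with CMV-shThbs2, against 68.4 to 98.0 FPKM with CMV-NC, with 3 of 3 tested markers lower. Spp1 made up most of that sum, at means of 44.5 FPKM with CMV-shThbs2 and 76.8 FPKM with CMV-NC. The sums of Kupffer, endothelial, lymphocyte and other tissue markers overlapped. The part of these markers in the values of the 7 genes was not tested.

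The αSMA comparison asks the same of the hairpin driven by the myofibroblast promoter. Hmgcs1 and Fdft1 rose and Srebf2 fell with αSMA-shThbs2, while Sqle, Idi1, Dhcr7 and Insig1 did not pass. So 2 of the 7 genes were called higher and 1 lower, where limma called 13.3% of all 13012 genes higher and 22.8% lower. Without overlap between groups, 2 were higher and 2 lower, where the whole table had 28.7% higher and 46.2% lower. The median log2 change was 0.41 over the 7 genes, against −0.16 over all genes, of which 40.8% were higher. Scaling moves this centre. With libraries set to the same FPKM sum the median of the 7 genes was 0.03 and that of all genes −0.51, with 1 called higher and 2 lower. With median centring the values were 0.63 and 0.05, with 2 called higher and 0 lower. Whole-table calls, 1729 higher and 2962 lower as deposited, were 936 and 5845 with the same FPKM sum, 1298 and 4219 with the same nuclear sum, 2514 and 1853 with median centring, and 1977 and 2309 with quantile normalisation.

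Srebf2 measured 9.98 and 8.54 FPKM with αSMA-shThbs2, against 13.2 and 16.8 FPKM with αSMA-NC. Both shThbs2 libraries were below both NC libraries (ratio of means 0.617), and the log2 change was −0.64 (SE 0.18, limma adjusted p = 0.0443). Relative to the median of all genes it was −0.47, and with median centring or quantile normalisation it did not pass (adjusted p = 0.139 and 0.135). Insig1 measured 83.9 and 55.0 FPKM with αSMA-shThbs2, against 36.8 and 63.1 FPKM with αSMA-NC. The groups overlapped, since shThbs2 library 4 was below NC library 4 (log2 change 0.48, SE 0.33, adjusted p = 0.287).

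Hmgcs1 had 190.4 and 154 FPKM with αSMA-shThbs2, against 40.6 and 63.0 FPKM with αSMA-NC. Both shThbs2 libraries stood far above both NC libraries, with a ratio of means of 3.33. The log2 change was 1.74 (SE 0.26, 95% interval 1.09 to 2.39, adjusted p = 0.0112), and 1.91 relative to the median of all genes. It was larger in size than the changes of 96.0% of tested genes. Idi1 measured 35.5 and 45.9 FPKM with αSMA-shThbs2, against 23.9 and 40.7 FPKM with αSMA-NC. Library 4 was the higher in both groups, the groups overlapped, and the log2 change was 0.36 (SE 0.29, adjusted p = 0.359), turning to −0.04 with the same FPKM sum. Fdft1 measured 36.6 and 25.8 FPKM with αSMA-shThbs2, against 12.8 and 18.1 FPKM with αSMA-NC. The shThbs2 libraries were above the NC libraries without overlap, at 2.02 times their mean (log2 change 0.97, SE 0.25, adjusted p = 0.0359; adjusted p = 0.101 with the same FPKM sum).

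Sqle was the enzyme that stood below NC, at 18.3 and 18.9 FPKM with αSMA-shThbs2, against 21.8 and 36.6 FPKM with αSMA-NC. The shThbs2 libraries were close together and below both NC libraries, but the NC libraries were far apart, and the log2 change of −0.58 (SE 0.26) did not pass (limma adjusted p = 0.135). It passed with the same FPKM sum (−0.97, adjusted p = 0.0294). Dhcr7 measured 20.9 and 11.3 FPKM with αSMA-shThbs2, against 8.26 and 15.5 FPKM with αSMA-NC. The groups overlapped and the libraries within each were farther apart than the group means (log2 change 0.41, SE 0.39, adjusted p = 0.430).

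The calls of the αSMA table rest on all 4 libraries. Without NC library 3, without NC library 4, and without shThbs2 library 3, 0 of the 7 genes passed, and without shThbs2 library 4 only Hmgcs1 did. Hmgcs1 had log2 changes of 1.43 to 2.05 over these fits, with adjusted p of 0.0990 without NC library 3, 0.101 without NC library 4 and 0.0667 without shThbs2 library 3. Over all tested genes, 15 were called higher and 38 lower without NC library 3, and 10 higher and 36 lower without NC library 4. The marker lists of the αSMA table showed a lower sum for stellate cells and myofibroblasts, 83.7 to 97.4 FPKM with αSMA-shThbs2, against 115 to 153 FPKM with αSMA-NC, with 7 of 8 lower, 3 of them called, and none at 0. Monocyte and neutrophil markers were lower as well, at 93.1 to 132 FPKM with αSMA-shThbs2, against 142 to 176 FPKM with αSMA-NC, with 6 of 7 lower and 3 called. Cholangiocyte markers summed to 119 to 204 FPKM with αSMA-shThbs2, against 227 to 318 FPKM with αSMA-NC. Of these 6 markers 5 were lower and 1 was called. Spp1 made up most of the sum, at means of 150 FPKM with αSMA-shThbs2 and 250 FPKM with αSMA-NC. Over all tested genes of the αSMA table, 22.8% were called lower and 13.3% higher, and 40.8% were higher on average. T, NK and B cell markers had a higher sum, 6.0 to 7.56 FPKM with αSMA-shThbs2, against 4.84 to 5.97 FPKM with αSMA-NC. Of these 7 markers only 4 passed the filter on low values, with 2 higher, 1 of them called, and 2 lower. The marker sums of Kupffer cells, endothelial cells and other tissues overlapped. Of 7 Kupffer cell and macrophage markers, 3 were higher, 1 of them called, and 4 were lower, 2 of them called. Of 7 endothelial markers, 2 were higher and 5 lower, with 1 called lower. The hepatocyte sums overlapped, at 34560 to 39317 FPKM with αSMA-shThbs2, against 31517 to 42610 FPKM with αSMA-NC, with 4 of 8 lower, 2 called higher and 1 called lower, and none at 0. The part of these markers and of the mitochondrial share in the changes was not tested.

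**Figure D2:**
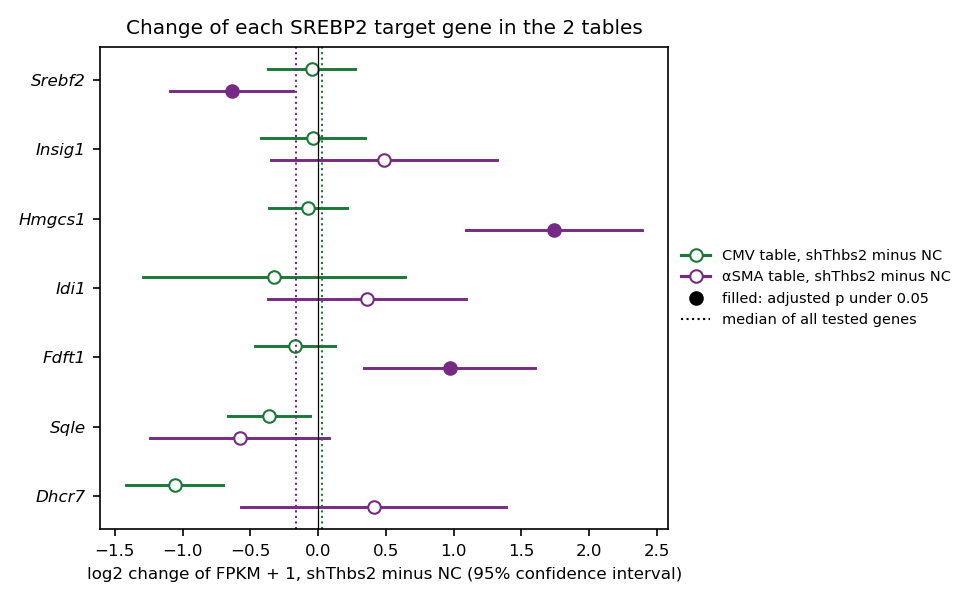
log2 change of FPKM + 1, shThbs2 minus NC (horizontal axis), of each gene in the CMV table (green) and the αSMA table (purple), with 95% confidence intervals, filled points where the adjusted p was under 0.05 and dotted lines at the median of all tested genes. Hmgcs1 and Fdft1 lie right of 0 and Srebf2 left of 0 in the αSMA table, and no point is filled in the CMV table.

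Libraries of one group differed in the 7 genes, mostly in the αSMA table. NC library 4 was above NC library 3 for 7 of 7 genes, by 1.27 times for Srebf2 to 1.88 times for Dhcr7, and for 16 of 16 other sterol enzymes, by 1.01 to 1.5 times. Of all tested genes 49.7% were higher in that library. Within αSMA-shThbs2, library 4 was below library 3 for 5 of 7 genes, with Dhcr7 at 0.542 times and Insig1 at 0.655 times, and for 13 of 16 other sterol enzymes, while 63.9% of all genes were higher in library 4. In the CMV table, NC library 2 was above NC library 1 for 5 of 7 genes, with Idi1 at 2.21 times, and for 15 of 16 other sterol enzymes, against 59.0% of all genes. The CMV-shThbs2 libraries were within 1.09 times of each other for 5 of the 7 genes, the exceptions being Idi1 (1.63 times) and Insig1 (0.821 times).

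**Figure D3:**
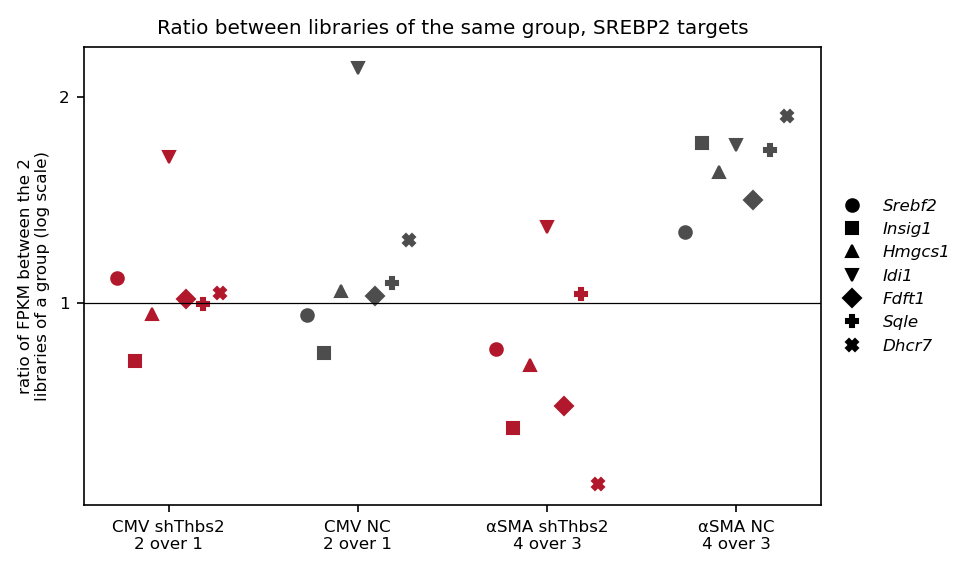
Ratio of FPKM between the 2 libraries of a group (vertical axis, log scale), 1 symbol per gene, with shThbs2 in red and NC in grey. With αSMA-NC all 7 genes are above 1 (1.27 to 1.88), and with αSMA-shThbs2 5 of 7 are below 1.

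The difference between the tables was tested in 1 model over the 8 libraries, as the CMV change minus the αSMA change. The model takes 1 spread per gene for both tables. Fitted alone, the tables differed in the SE of Hmgcs1 (0.12 CMV, 0.26 αSMA) and Dhcr7 (0.15 CMV, 0.39 αSMA). The difference passed for 3 of the 7 genes, where limma called 25.1% of 10245 genes. Hmgcs1 had log2 changes of −0.07 (CMV) and 1.74 (αSMA), a difference of −1.81 (SE 0.29, adjusted p = 0.00658). Fdft1 had −0.17 and 0.97, a difference of −1.14 (SE 0.29, adjusted p = 0.0239). Dhcr7 had −1.06 and 0.41, a difference of −1.47 (SE 0.45, adjusted p = 0.0432). Srebf2 (0.59, adjusted p = 0.0786), Idi1 (−0.69, adjusted p = 0.377), Insig1 (−0.52, adjusted p = 0.343) and Sqle (0.22, adjusted p = 0.612, 95% interval −0.46 to 0.90) did not pass. Hmgcs1 passed in all 16 alternative fits, with differences of −2.13 to −1.44. Fdft1 did not pass in 7 of them, 5 of which left out a library, and Dhcr7 did not pass in 12.

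Sqle was the one gene of the 7 with both shThbs2 libraries below both NC libraries in each table. Among all tested genes, 17.5% with the CMV vectors and 46.2% with the αSMA vectors were lower without overlap. The share of genes lower in this way with both promoters was not counted, so the result for Sqle has no background to be set against. In an exact two-sided permutation test within tables the mean log2 difference of Sqle was −0.47 (p = 0.0556, the smallest that 36 assignments can give). Any gene separated in this way in each table gets that p, so it adds nothing to the separation itself. Within 1 table the exact test cannot go below p = 0.333. The same stratified exact test gave p = 0.111 for Srebf2 (mean difference −0.34), p = 0.333 for Hmgcs1 and for Fdft1, p = 0.5 for Dhcr7, p = 0.556 for Insig1 and p = 0.944 for Idi1. These p-values are unadjusted.

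Across the 8 libraries, after centring log2(FPKM + 1) within each table, Hmgcs1 and Fdft1 varied together (Pearson r = 0.97), as did Fdft1 and Insig1 (r = 0.83) and Srebf2 and Sqle (r = 0.83). Srebf2 and Hmgcs1 varied oppositely (r = −0.77), and Hmgcs1 and Sqle had r = −0.49. These are descriptions over libraries that share groups and tables. The genes whose pattern was most like the average of the 7, by Pearson r over the same 8 libraries, were Kalrn (0.95), Mmp23 (0.95), 2210418O10Rik (0.94), Gins1 (0.93) and Trim30d (0.92). They were picked as the highest r from the 10245 genes tested in both tables, and their likeness was not tested. The average stands poorly for Srebf2 (r = −0.34 with the rest of the 7) and Sqle (0.01). For the others this r was 0.47 (Idi1) to 0.78 (Dhcr7).

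The other 16 enzymes of sterol synthesis of the CMV table gave 0 calls by limma. Of the 16, 12 were lower on average and 3 were lower at an unadjusted p under 0.05. Their median log2 change was −0.31, and −0.08 without NC library 2. Mevalonate kinase, Mvk, had −0.48 (adjusted p = 0.432), and the acetoacetyl-CoA thiolase Acat2 −0.31 (adjusted p = 0.480). The groups of 8 of the 16 did not overlap and were lower, and those of 1 were higher, where 17.5% of all tested genes were lower and 24.5% higher without overlap.

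With αSMA-shThbs2, 2 of these 16 enzymes rose and 2 fell, where 13.3% of all tested genes were called higher and 22.8% lower. On average 10 were higher, with a median of 0.31 that turned to −0.05 with the same FPKM sum and was 0.15 without shThbs2 library 3, 0.16 without NC library 3 and 0.46 without NC library 4. Nsdhl, a sterol dehydrogenase that removes methyl groups at C-4, measured 24.1 and 14.6 FPKM with αSMA-shThbs2, against 5.27 and 7.75 FPKM with αSMA-NC (1.42, limma adjusted p = 0.0211). Ebp, the sterol isomerase, measured 136 and 106 FPKM with αSMA-shThbs2, against 64.6 and 75.8 FPKM with αSMA-NC (0.77, adjusted p = 0.0336). Both were above NC without overlap. Hsd17b7, a keto-reductase that acts with Nsdhl, measured 5.94 and 4.83 FPKM with αSMA-shThbs2, against 10.2 and 12.0 FPKM with αSMA-NC (−0.92, adjusted p = 0.0168). Lbr, a nuclear membrane protein with sterol reductase activity, measured 4.76 and 5.62 FPKM with αSMA-shThbs2, against 9.39 and 9.49 FPKM with αSMA-NC (−0.76, adjusted p = 0.0197). Nsdhl and Hsd17b7, which act in one sequence of steps, thus went in opposite directions.

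Genes of SREBP handling gave 0 calls of 7 in the CMV table, with 1 lower at an unadjusted p under 0.05, Rnf145 (−0.47), a ubiquitin ligase of the endoplasmic reticulum. With αSMA-shThbs2, 0 of 7 rose and 2 fell, against 13.3% and 22.8% of all tested genes, and the median was −0.47. Scap, the escort, measured 11.0 and 9.53 FPKM with αSMA-shThbs2, against 19.6 and 16.4 FPKM with αSMA-NC (−0.75, limma adjusted p = 0.0254). With median centring 0 of 7 passed. Insig2, the paralogue of Insig1, measured 43.9 and 81.7 FPKM with αSMA-shThbs2, against 142 and 103 FPKM with αSMA-NC, without overlap (−1.0, adjusted p = 0.0683). The change of Scap differed between the tables, from the joint model, by 0.94 (adjusted p = 0.0146).

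Of 12 uptake and intracellular transport genes 11 were tested. With CMV-shThbs2, 0 passed, 1 was higher and 2 lower at an unadjusted p under 0.05, and the median was −0.20 (−0.016 without shThbs2 library 1). Npc1, which carries cholesterol out of lysosomes, had a log2 change of 0.45 (adjusted p = 0.481) and Stard4, a sterol carrier, −0.32 (adjusted p = 0.469). With αSMA-shThbs2, 1 rose and 6 fell of 11, against 13.3% and 22.8% of all tested genes, with a median of −0.63. Npc1 rose, at 69.1 and 100.8 FPKM with αSMA-shThbs2, against 44.7 and 41.7 FPKM with αSMA-NC (0.94, limma adjusted p = 0.0292). Scarb1, the receptor for high-density lipoprotein, fell to 18.3 and 18.7 FPKM with αSMA-shThbs2, against 47.5 and 54.1 FPKM with αSMA-NC (−1.41, adjusted p = 0.00702), and its change differed between the tables by 1.42 (adjusted p = 0.00658). Stard3 (−1.03), Npc2 (−0.90), the partner of Npc1, and the lysosomal lipase Lipa (−0.63) fell as well, with adjusted p of 0.0142 to 0.0303.

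Of 9 genes of cholesterol esters, efflux and the liver X receptors, 0 passed in the CMV table, and 0 were higher and 2 lower at an unadjusted p under 0.05, the efflux pumps Abca1 (−0.52) and Abcg1 (−0.49). With αSMA-shThbs2 the acyltransferases that make cholesterol esters went opposite ways, the 1 gene called higher and 1 called lower of 9, against 13.3% and 22.8% of all tested genes. Soat2, the hepatocyte and intestinal form, rose to 31.3 and 35.0 FPKM with αSMA-shThbs2, against 10.6 and 11.4 FPKM with αSMA-NC (1.5, limma adjusted p = 0.00644). Soat1, the form of most other cells, fell to 1.59 and 2.32 FPKM with αSMA-shThbs2, against 5.07 and 5.53 FPKM with αSMA-NC (−1.10, adjusted p = 0.0142). Both differed between the tables (Soat2 −1.46, adjusted p = 0.0048; Soat1 0.88, adjusted p = 0.0444). In the isoprenoid branch 0 of 9 passed in the CMV table, with 0 at an unadjusted p under 0.05. With αSMA-shThbs2, Coq2, an enzyme of ubiquinone synthesis, rose (0.83, adjusted p = 0.0151) and Fnta, a subunit of protein prenyltransferases, fell (−0.88, adjusted p = 0.0184), 1 of 9 each way, against the same 13.3% and 22.8%.

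SREBP1, from Srebf1, is the related factor of fatty acid synthesis. Of 15 lipogenic genes, Srebf1 among them, 0 passed in the CMV comparison, 1 was higher and 5 lower at an unadjusted p under 0.05, and the median was −0.20 (−0.35 without NC library 2). Srebf1 itself measured 26.9 and 35.1 FPKM with CMV-shThbs2, against 68.2 and 74.1 FPKM with CMV-NC, without overlap (−1.18, limma adjusted p = 0.137). With αSMA-shThbs2, 5 of 15 rose and 0 fell, against 13.3% and 22.8% of all tested genes. The median was 0.64, and 14 were higher on average (8 with the same FPKM sum). Without shThbs2 library 3 the median was 0.12, with 9 higher and 6 lower; with the same FPKM sum it was 0.23. Acaca, which makes malonyl-CoA, rose to 44.2 and 35.5 FPKM with αSMA-shThbs2, against 13.7 and 12.5 FPKM with αSMA-NC (1.53, adjusted p = 0.00735). Elovl6 (2.17), Me1 (0.64), Thrsp (4.64) and Mlxipl (2.12), which encodes the carbohydrate-responsive factor ChREBP, rose too, with adjusted p of 0.0175 to 0.0277. All 15 were higher in αSMA-shThbs2 library 3 than in library 4; Thrsp had 457 and 67.0 FPKM there, against 4.86 and 7.51 FPKM with αSMA-NC. Srebf1 had a log2 change of 0.08 in the αSMA table (adjusted p = 0.852), and its difference between the tables was −1.26 (adjusted p = 0.0336).

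Of the 67 tested genes of these 6 lists, 10 were called higher and 12 lower in the αSMA table, close to the 13.3% and 22.8% of all tested genes. Median centring gave 15 higher and 9 lower in that table, and quantile normalisation 12 and 13. The counts were 0 and 0 without NC library 3 and without NC library 4, 5 and 1 without shThbs2 library 3, 15 and 11 without shThbs2 library 4, 4 and 1 with no filter on low values, and 6 and 24 with the same FPKM sum. In the CMV comparison they were 0 and 0, against 1 and 3 without NC library 1 and 0 and 2 without NC library 2.

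**Figure D4:**
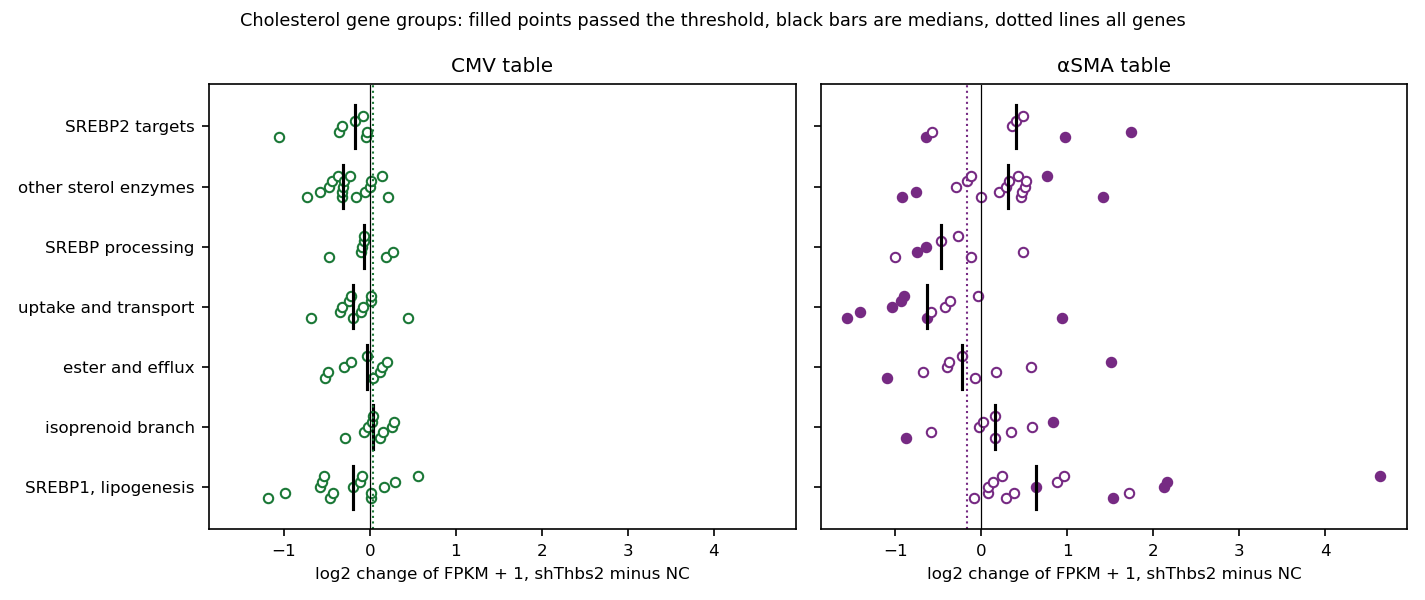
log2 change of FPKM + 1, shThbs2 minus NC (horizontal axis), of every tested gene of 7 groups in the CMV table (left panel) and the αSMA table (right panel), with filled points past the threshold, black bars at group medians and dotted lines at the median of all tested genes. In the αSMA table the medians run from −0.63 for uptake and transport to 0.64 for lipogenesis, and no point is filled in the CMV table.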

How the data were processed

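The authors deposited 1 table of FPKM values for the CMV libraries and 1 for the αSMA libraries, without read counts, so the depth behind a value is unknown. Per the submitters' processing notes, the tools were Bowtie2 2.3.5, HISAT2 2.1.0, HISAT and Cufflinks, and the build was GRCm38. The tool behind each table, and its treatment of reads shared by related genes, are not given in the sources used here. In the CMV file, 27 symbols turned into dates were restored from Ensembl identifiers.

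The test was limma 3.58.1 (R 4.3.3) on log2(FPKM + 1) (moderated statistics with a mean trend, two-sided), each table alone, over genes with a mean of at least 1 FPKM in its 4 libraries. P-values were adjusted by Benjamini-Hochberg over all tested genes, with a threshold of 0.05. Each table leaves 2 residual degrees of freedom. A joint model over 10245 genes tested the difference of the changes, and exact permutation tests were run for single genes. A fold on this scale understates changes of low genes. Intervals are 95% and unadjusted. The series text speaks of mice, and libraries were taken as separate mice; if they are not, p-values measure only the spread between libraries. The procedure was also run on simulated data in which every gene had the same noise. Real genes differ in spread, so that run checks the procedure and not the calls given here.

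Alternatives were 4 scalings, a filter at 5 FPKM, none at all, a pseudocount of 0.1, robust variance estimates, a replicate block, the joint model and leaving out each library. Replicate numbers were not taken to pair libraries. Over all tested genes, deviations of libraries with the same number had correlations of 0.0400 (CMV) and 0.00134 (αSMA). A pairing that touched only a part of the genes might not show in such a correlation. The 7 genes, the lists and the markers were chosen with earlier results of these data known. Genes past the threshold and the 4 with the smallest p of a list could be named, with 5 genes of similar pattern; some genes that the rule picks are not reported here. Promoters are RefSeq's, and no genome sequence was read.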

Additional observations from a re-analysis of the deposited data

Results flagged for a closer look

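The changes of 3 genes differed between the tables by limma's joint model, as the CMV change minus the αSMA change on the log2 scale. The difference was −1.81 for Hmgcs1, −1.14 for Fdft1 and −1.47 for Dhcr7. For Hmgcs1 and Fdft1 the αSMA change passed within its table and the CMV change did not, and for Dhcr7 neither passed within its table. The tables differ in vector, sequencer and company at once, and these cannot be told apart.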

How the results depend on the processing

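With 2 libraries a group and no counts, small changes could not be detected. In the αSMA table the number of the 7 genes past the threshold was 1 with no filter on low values, 1 with the replicate block, and 0 to 1 when leaving out 1 library. In the CMV table it was 0 to 1 when leaving out 1 library. The number that differed between the tables was 1 with the replicate block and 1 to 3 when leaving out 1 library. The replicate block called 14 genes higher and 3 lower in the CMV table and 1647 higher and 2670 lower in the αSMA table. The αSMA median of the 7 genes was 0.029 with the same FPKM sum and −0.0080 to 0.83 when leaving out 1 library. Signs turned in these cases: Idi1 of the αSMA table with the same FPKM sum (−0.038) and when leaving out 1 library (−0.011 to 0.73); Dhcr7 of the αSMA table when leaving out 1 library (−0.0080 to 0.83); in the CMV table, when leaving out 1 library, Srebf2 (−0.10 to 0.0096), Idi1 (−0.88 to 0.24) and Insig1 (−0.18 to 0.10); and the difference between the tables of Sqle with median centring (−0.033) and when leaving out 1 library (−0.14 to 0.57). The cause was not tested. Over 14 alternatives the adjusted p of the genes called in the αSMA table ran from 0.000495 to 0.101 for Hmgcs1, 0.00514 to 0.209 for Fdft1 and 0.00917 to 0.274 for Srebf2, with no change of sign.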
